A study of Mus musculus with 12 samples.

Results

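The aminoacyl-tRNA synthetases are the enzymes that join each amino acid to its tRNA, and their mRNAs were followed across Osx+ osteoblasts of juvenile and adult mice and of mice in which c-Myc, alone or with mutant p53, had been switched on. The members were chosen by symbol alone, as every entry of the gene-level count table named with 1 amino acid letter followed by "ars" with an optional 1 or 2, plus Eprs, and this pattern found 35 of 32288 entries. The pattern uses symbols and no measured value, but the family was taken up with earlier results of these data known. Of the 35, 18 encode the enzymes that charge tRNAs in the cytosol (some of which also serve mitochondria) and 17 encode the mitochondrial enzymes, whose symbols end in 2. All 35 passed the filter on low counts in both models. The pattern leaves out the 2 subunits of the cytosolic phenylalanine enzyme, Farsa and Farsb, and the threonine enzyme Tarsl2, whose values are given with the related genes.

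The 12 libraries came from mGFP+ cells sorted as negative for CD31, CD45 and TER119 from the metaphysis of femurs and tibias, and all mice carried Osx-CreERT2 and the mTmG reporter and had received tamoxifen. Control Osx-CreERT2; mTmG mice were taken at 3 weeks of age (juvenile, 4 libraries) or 8 weeks (adult, 4 libraries), with 2 male mice pooled in each library. The c-Myc group (2 libraries) also carried LSL-tTA and Col1a1::TetO–c-Myc, and the c-Myc + R172H group (2 libraries) added Trp53-LSL-R172H, a dominant-negative p53 allele. Both came from males and females and were taken 7 days after tamoxifen, which the study's methods place at 3 weeks of age. The same methods call these mice 5 weeks old at dissection, their titles read 3w, and the sources do not settle the age. Both LSL alleles are opened by the Cre that Osx drives, so they act in Osx-expressing cells and their descendants, and the tTA-driven c-Myc is an overexpression. The c-Myc groups differed from the juvenile group in age at dissection, in sex (Xist lay at 233 and 211 CPM in the second library of each and at 1.24 CPM or below in the other 10) and in the length of bone kept (about 5 mm against 2 mm). By the study's methods, mice with the tTA-driven transgene, or their mothers in pregnancy, also received doxycycline or tetracycline, stopped before analysis. Tamoxifen schedules differed too, with control cells taken 2 days after the last of 3 daily doses and c-Myc cells 7 days after 2 doses. Sex differed in only 1 library of each c-Myc group, since Xist in the first was as low as in the controls, and its part was not tested. None of the other differences can be told apart from the transgene.

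Each tRNA must carry the right amino acid before the ribosome can use it, and the synthetases set that match in an ATP-dependent reaction. In the cytosol, 8 of them (glutamate-proline, isoleucine, leucine, methionine, glutamine, arginine, lysine and aspartate) are held in the multi-synthetase complex, and the others work outside it. Mitochondria use their own set, made from nuclear genes and imported, to translate the few respiratory-chain proteins encoded in mitochondrial DNA. Several cytosolic synthetase genes are known targets of ATF4, the transcription factor of the amino acid response, which binds a composite C/EBP-ATF motif, and MYC is known to bind the E-box CACGTG. Osteoblasts are a demanding setting for this family, since they secrete type I collagen, in which every repeat of the helix holds a glycine and proline is abundant.

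Promoters of 5 members, 3 that did not pass the c-Myc comparison and 2 that rose in it, are printed first. The RefSeq promoter table (GRCm38.p6, the same assembly as mm10) held windows of 250 bases before to 50 after the annotated start for 25 of the 35 members. These were searched for 2 motifs, each on both strands: TGATGNAA, the ATF4 composite, where N is any base, and CACGTG. TGATGNAA was found in 5 of the 25 members with a window (Iars, Aars, Gars, Tars and Yars), all 5 among the 11 cytosolic members, against 4.51% of the 27025 genes in the table. CACGTG was found in 4 of the 25 (Iars, Aars, Tars and Ears2), against 8.09% of all genes. The motifs overlapped in none of these windows. The first 3 sequences are shown because they belong to Aars, Tars and Gars, the free cytosolic members that did not pass the test with c-Myc, and the last 2 because they belong to Mars2 and Yars2, which rose most among the members whose window held neither motif. They lie at chr8:111033592-111033891 (+ strand), chr15:11399609-11399908 (− strand), chr6:55037751-55038050 (+ strand), chr1:55236927-55237226 (+ strand) and chr16:16302715-16303014 (+ strand), and are written 5′ to 3′ along the gene, with both motifs in capitals:
Aars: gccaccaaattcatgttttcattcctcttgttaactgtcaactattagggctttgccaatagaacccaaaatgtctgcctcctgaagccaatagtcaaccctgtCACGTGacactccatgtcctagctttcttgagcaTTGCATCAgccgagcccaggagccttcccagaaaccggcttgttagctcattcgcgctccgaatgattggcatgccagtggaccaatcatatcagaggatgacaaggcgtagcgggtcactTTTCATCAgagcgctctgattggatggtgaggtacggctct
Tars: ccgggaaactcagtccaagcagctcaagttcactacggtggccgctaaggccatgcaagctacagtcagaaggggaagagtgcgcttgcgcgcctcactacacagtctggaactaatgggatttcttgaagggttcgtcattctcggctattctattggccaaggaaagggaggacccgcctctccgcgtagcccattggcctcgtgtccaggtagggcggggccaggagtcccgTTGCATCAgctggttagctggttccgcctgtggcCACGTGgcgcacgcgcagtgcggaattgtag
Gars: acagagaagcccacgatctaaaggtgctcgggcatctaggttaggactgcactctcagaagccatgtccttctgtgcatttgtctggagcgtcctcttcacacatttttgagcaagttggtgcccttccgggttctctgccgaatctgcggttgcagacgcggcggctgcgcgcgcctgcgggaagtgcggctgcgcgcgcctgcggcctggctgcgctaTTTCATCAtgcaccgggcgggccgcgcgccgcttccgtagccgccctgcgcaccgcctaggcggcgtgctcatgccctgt
Mars2: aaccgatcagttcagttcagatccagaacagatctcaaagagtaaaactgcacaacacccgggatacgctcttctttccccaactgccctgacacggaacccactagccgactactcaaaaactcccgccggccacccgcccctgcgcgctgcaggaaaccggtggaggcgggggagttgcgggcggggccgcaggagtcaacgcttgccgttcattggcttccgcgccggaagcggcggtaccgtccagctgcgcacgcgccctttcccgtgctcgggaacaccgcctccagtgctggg
Yars2: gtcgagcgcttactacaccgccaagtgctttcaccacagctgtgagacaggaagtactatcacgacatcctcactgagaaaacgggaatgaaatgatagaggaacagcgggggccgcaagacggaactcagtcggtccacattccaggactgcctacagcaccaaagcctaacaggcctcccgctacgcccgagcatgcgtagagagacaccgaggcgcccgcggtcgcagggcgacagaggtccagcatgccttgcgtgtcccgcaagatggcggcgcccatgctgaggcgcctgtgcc

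Aars held CACGTG from 146 bases upstream of the start and TGATGNAA from 112 bases upstream, with a second copy just inside the transcript. Tars held TGATGNAA from 15 bases upstream and CACGTG just downstream of the start, and Gars held TGATGNAA from 30 bases upstream. For comparison, the windows around TGATGNAA in Iars (chr13:49682111-49682170, + strand) and Yars (chr4:129189880-129189939, + strand), cytosolic members that did rise with c-Myc, were:
Iars: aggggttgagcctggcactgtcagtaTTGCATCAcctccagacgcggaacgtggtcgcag
Yars: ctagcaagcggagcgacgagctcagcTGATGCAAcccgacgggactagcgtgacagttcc
A match describes letters in a window and not the binding of a factor. TGATGNAA was present both in members that did not pass with c-Myc (Aars, Tars, Gars) and in members that rose (Iars, Yars), and Eprs, which did not pass either, held neither motif. The cytosolic members Lars, Rars, Cars, Hars, Nars, Vars and Wars had no window. All of them rose with c-Myc, and Vars (log2 fold change 2.07) and Rars (1.47) had the largest cytosolic rises. Motif and response could therefore not be compared over many of the cytosolic members that rose.

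Library totals ranged from 9066154 to 15684412 counts. Col1a1, Col1a2 and the noncoding Gm26917 together took 57.1 to 65.3% of the juvenile counts, 42.4 to 56.1% of the adult, and 41.8 and 46.1% of the c-Myc counts, so levels are given as CPM, counts scaled to a common library size with the trimmed mean of M-values (TMM). The members together took 0.0986 to 0.120% of the juvenile counts and 0.333 and 0.334% of the c-Myc counts. Myc itself lay at 39.8 to 52.2 CPM in the juvenile libraries, at 44.7 to 51.2 CPM in the adult, at 624 and 657 CPM in the c-Myc and at 639 and 747 CPM in the c-Myc + R172H libraries, about as high as each other in both groups labelled c-Myc. Trp53 lay at 55.9 and 65.2 CPM in the c-Myc and at 62.2 and 63.3 CPM in the c-Myc + R172H libraries, but gene counts do not tell the mutant allele from the other and check nothing here. Osteoblast markers (10 genes) summed to 571322 to 839928 CPM in the juvenile libraries and to 99866.5 and 132279 CPM in the c-Myc libraries, and cartilage markers (12 genes) to 18722 to 36746 and to 1882 and 2122 CPM. Col1a1 and Col1a2 made up most of the osteoblast sums. Log2 fold changes of the 10 osteoblast genes with c-Myc ran from −3.29 (Bglap) to −0.71 (Runx2), with Sp7 at −0.81. Markers of marrow stroma (5 genes) summed to 267 to 351 CPM in juvenile, 97.0 and 167 CPM in c-Myc and 83.8 and 96.5 CPM in c-Myc + R172H libraries. Among them, Lepr (log2 fold change −2.64; edgeR, adjusted p = 2.79e-08) and Cxcl12 (−0.99, adjusted p = 0.0245) were lower with c-Myc. Cebpa was higher (0.56; edgeR, adjusted p = 0.0268), Adipoq did not pass, and Plin1 was too low to be tested. Markers of blood cells (14 genes) summed to at most 8.33 CPM and of endothelium (6 genes) to at most 1.29 CPM in any library, with Cd3e and S100a8 at 0 in every library.

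In juvenile osteoblasts the glycine enzyme stood first by level per kb of transcript, as it also did in c-Myc osteoblasts (79.3 CPM per kb). Divided by the length of the transcript with the longest coding sequence, Gars lay at 72.5 CPM per kb, followed by Eprs (glutamate and proline) at 47.1, the mitochondrial Lars2 (leucine) at 33.6, Sars (serine) at 30.3, Kars (lysine, which serves both compartments) at 28.2, Nars (asparagine) at 24.8 and Aars (alanine) at 20.8 CPM per kb. Vars (valine) at 17.9 and Mars (methionine) at 18.9 were neighbours of Aars in that order, and these 3 are not separated beyond their spread over libraries. The place of Lars2 is uncertain too, since it ran from 65.1 to 216 CPM over the juvenile libraries. The lowest cytosolic member, Cars (cysteine) at 6.48 CPM per kb, lay above every mitochondrial member other than Lars2, which ran from Iars2 (isoleucine) at 4.46 down to Pars2 (proline) at 0.472 and Mars2 (methionine) at 0.287 CPM per kb. The order of single members depends on the transcript chosen, since annotated 3′ ends differ (11294 bases for Mars2, 5750 for Aars).

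**Figure D1:**
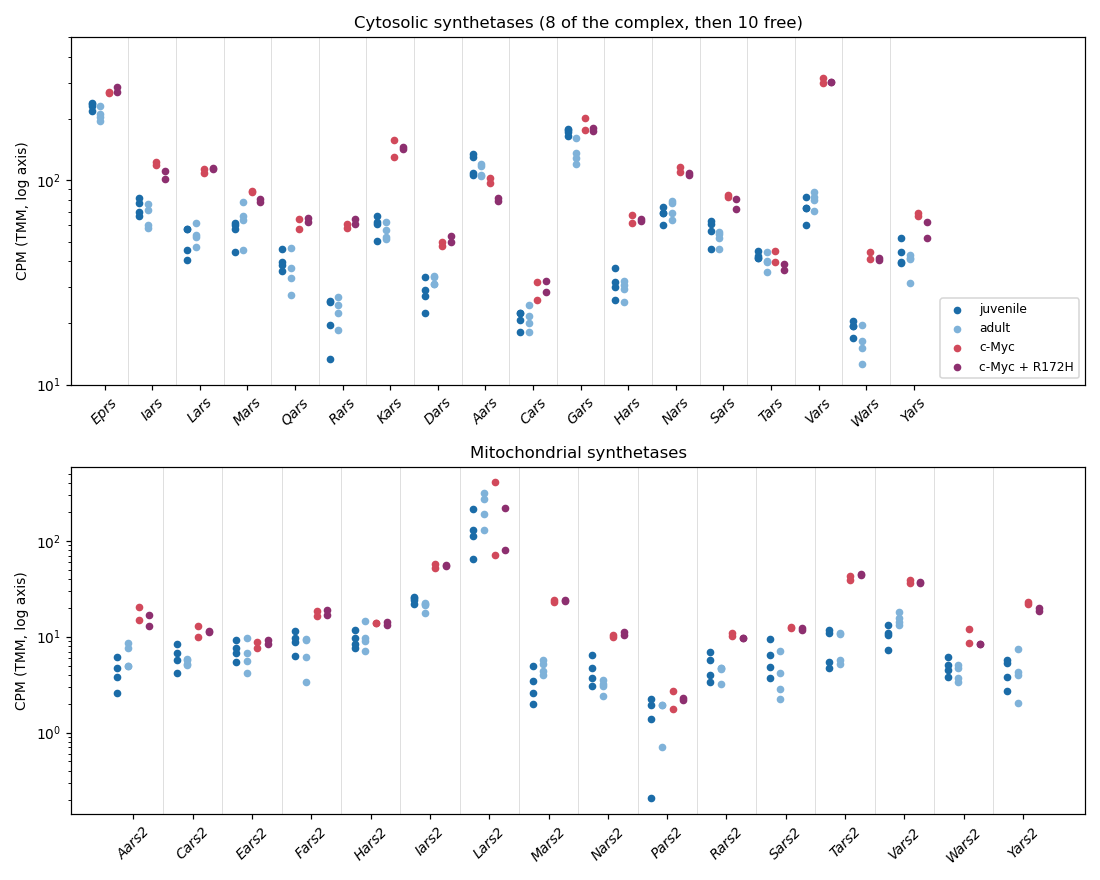
CPM of the synthetase mRNAs in every library on a log axis, with 1 point per library coloured by group; the upper panel holds the cytosolic and the lower the mitochondrial members, and the adult library in which Pars2 had no counts is not drawn. Most members sit higher in both c-Myc groups than in either control group, Aars does not, and Lars2 spreads widely within every group.

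The residues that these cells' mRNAs encode were then set beside that order. Glycine, proline and alanine were the commonest residues of type I collagen in the annotated proteins, at 26.8, 19.0 and 8.95% of Col1a1 and at 27.8, 16.3 and 8.97% of Col1a2. Weighting each of 21254 coding genes by its CPM per kb, glycine made up 19.7 to 21.3% of the residues encoded by the juvenile mRNA pool, proline 13.8 to 14.7% and alanine 8.24 to 8.36%. In the c-Myc libraries glycine lay at 12.1 and 13.2%, proline at 9.13 and 9.89%, and alanine at 7.86 and 7.91%, all below the juvenile range. The other 17 residues, leucine among them (5.48 to 5.87% in juvenile, 7.62 and 7.94% in c-Myc libraries), lay above it. Col1a1 and Col1a2 accounted for 59.1 to 68.1% of encoded residues in the juvenile libraries and for 24.3 and 30.0% in the c-Myc libraries. The enzymes for the 3 residues whose share was lower in the c-Myc libraries, Gars, Eprs and Aars, are among the members with the smallest or negative fold changes with c-Myc below. So is Tars, for threonine (3.76 to 3.93% in juvenile, 4.56 and 4.68% in c-Myc libraries), whose share was higher. Eprs also charges glutamate, whose share was higher too (5.75 to 5.91%, 6.67 and 6.78%). Ears2, also among these members, is the mitochondrial glutamate enzyme. These shares are estimates from mRNA levels and say nothing of translation rates, and whether the 2 measures are linked was not tested.

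**Figure D2:**
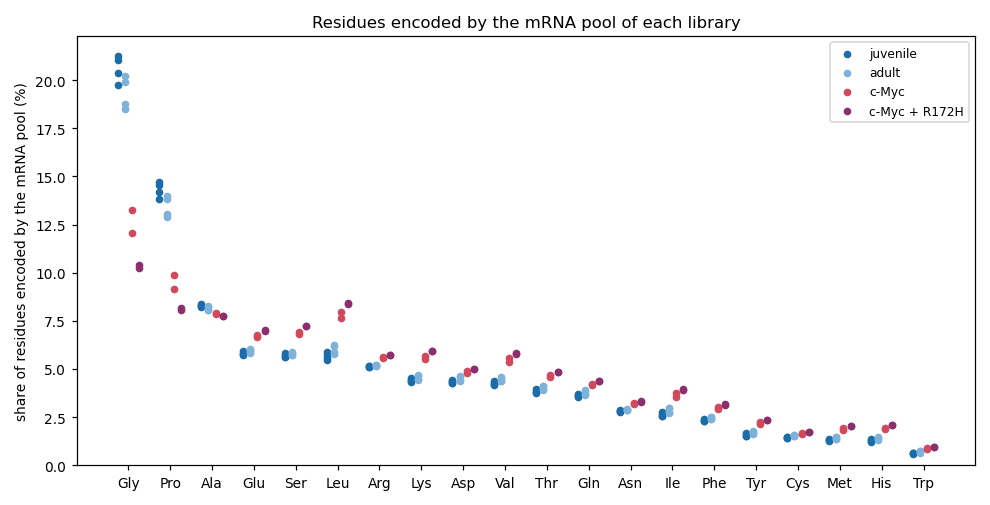
Share of each amino acid, in percent, among the residues encoded by the mRNA pool of each library, with 1 point per library coloured by group and amino acids ordered by their juvenile median. Glycine and proline stand highest in the control libraries and lower in both c-Myc groups, while most other residues take a larger share there.

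Juvenile and adult osteoblasts were compared to ask whether the family changes as the growth plate matures. No member passed the test between 3 and 8 weeks (0 of 35 at an adjusted p below 0.05 by edgeR's quasi-likelihood test, where 5.12% of 11345 genes tested passed), DESeq2 also called 0, and at an unadjusted p below 0.05 edgeR gave 2 (19.7% of all genes). The median log2 fold change, juvenile over adult, was 0.09 over the members and 0.00 over all genes tested. Those 2 members were also the ones whose groups did not overlap, 1 higher and 1 lower in juvenile cells (6.17 and 6.75% of all genes tested).

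Gars lay at 165, 173, 175 and 179 CPM in the juvenile libraries and at 120, 128, 136 and 161 in the adult. All 4 juvenile values were above all 4 adult values, with a log2 fold change of 0.33 (SE 0.115; edgeR, unadjusted p = 0.00995, adjusted p = 0.102). Over the 17 alternatives the adjusted p ran from 0.0432, when all 12 libraries shared 1 estimate of the spread and the only one that passed, to 0.731 with library totals, where the log2 fold change was 0.10 and the median of all genes −0.24. Vars2, the mitochondrial valine enzyme, lay at 7.20 to 13.2 CPM in juvenile and 13.2 to 18.2 in adult libraries, groups that all but touched, and its log2 fold change was −0.57 (SE 0.227; edgeR, adjusted p = 0.167). The cartilage marker sum also differed between these groups (18722 to 36746 CPM in juvenile, 44590 to 141301 in adult), and its part in these values was not tested.

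c-Myc osteoblasts were compared with juvenile osteoblasts to ask what the transgene does in cells of the growing metaphysis. Of the 35 members, 28 rose and 0 fell (edgeR, adjusted p below 0.05), where 28.4% of 12588 genes tested rose and 25% fell. At an unadjusted p below 0.05, 29 were higher (31.1% of all genes) and 1, Aars, was lower (27.7%). DESeq2 called 30 members in all, Aars lower among them, and its share over all genes was not counted. The median log2 fold change was 0.94 over the members against 0.04 over all genes, and 17 members rose by a log2 fold change of at least 1 (18.4% of all genes did). The c-Myc libraries lay entirely above the juvenile libraries for 29 members (35.7% of all genes). The mitochondrial enzymes rose in 14 of 17 cases with a median of 1.07, those of the multi-synthetase complex in 7 of 8 with a median of 0.73, and the free cytosolic enzymes in 7 of 10 with a median of 0.58. Cycling markers (5 genes) moved in the same libraries, from 77.1 to 106 CPM summed in juvenile cells to 452 and 480 CPM, and their part in these rises, like that of the lower osteoblast, cartilage and marrow stroma sums, was not tested. In bulk RNA of this kind, a change in the mix of cells and a change of RNA within a cell cannot be told apart.

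**Figure D3:**
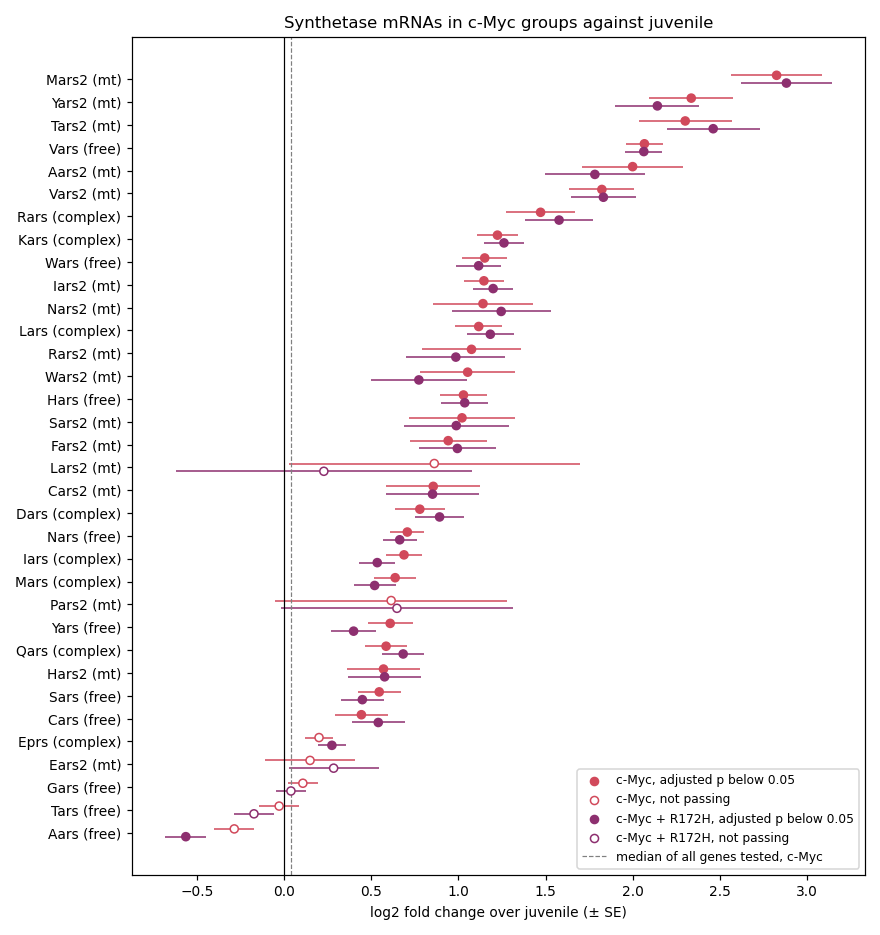
Log2 fold change over juvenile of the synthetase mRNAs with c-Myc (red) and with c-Myc + R172H (purple), with SE bars, ordered by the c-Myc value; filled points passed an adjusted p of 0.05 and open points did not, mt marks mitochondrial members, and both comparisons share the juvenile libraries. Mars2 stands at the top at 2.83, and Aars, at −0.29 and −0.57, at the bottom.

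The largest rises were in the mitochondrial enzymes. Mars2 (chromosome 1, 55237177 to 55248470, + strand), which charges the mitochondrial methionine tRNA used for starting and for extending proteins, lay at 1.99, 2.56, 3.48 and 4.95 CPM in the juvenile libraries and at 23.0 and 24.1 CPM with c-Myc. The groups did not overlap, and its log2 fold change was 2.83 (SE 0.261; edgeR, adjusted p = 1.98e-06), a 7.10-fold rise from juvenile counts of 16 to 48 per library.

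Yars2 (tyrosine; chromosome 16, 16302965 to 16309640, + strand) lay at 2.73, 3.83, 5.28 and 5.67 CPM in juvenile and at 21.8 and 23.2 CPM in c-Myc libraries, a log2 fold change of 2.34 (SE 0.241; edgeR, adjusted p = 4.91e-06). Tars2 (threonine; chromosome 3, 95739976 to 95760206, − strand) lay at 4.72, 5.48, 10.8 and 11.8 and at 39.2 and 42.5 CPM, a log2 fold change of 2.30 (SE 0.268; edgeR, adjusted p = 1.38e-05). In both genes, the 2 c-Myc libraries were above every control library, adult ones included.

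Aars2 (alanine) rose by 2.00 and Vars2 (valine) by 1.82 on the log2 scale. Iars2 (isoleucine), from 24.4 ± 1.72 (SD, n = 4) to 54.7 ± 3.89 CPM (SD, n = 2), Nars2 (asparagine), Rars2 (arginine), Wars2 (tryptophan) and Sars2 (serine) rose by 1.02 to 1.15. Smaller rises were measured in Fars2 (phenylalanine, 0.94), Cars2 (cysteine, 0.85) and Hars2 (histidine, 0.57). Of these, Cars2, Fars2, Hars2, Rars2, Sars2 and Wars2 did not pass under every alternative setting, whereas the other 8 mitochondrial members called did so in all 18. Fars2 spans a long stretch that other genes overlap, and Hars2 and Hars overlap at their starts on opposite strands, so their counts are uncertain where reads could be split.

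The 3 mitochondrial members that did not pass were Ears2, Pars2 and Lars2. Ears2 (glutamate) lay at 5.42 to 9.13 CPM in juvenile and at 7.67 and 8.79 CPM in c-Myc libraries, which overlapped (log2 fold change 0.15, SE 0.261; edgeR, adjusted p = 0.659). Pars2 (proline) had 2 to 21 counts in the juvenile and 31 and 59 in the c-Myc libraries, and its log2 fold change of 0.61 (SE 0.667) was not detectable at this depth. Lars2 was noisy in another way and is described apart.

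In the multi-synthetase complex, Rars (arginine; chromosome 11, 35808381 to 35834506, − strand) rose most, from 13.3, 19.6, 25.4 and 25.7 CPM in juvenile libraries to 58.5 and 60.8 CPM with c-Myc, a log2 fold change of 1.47 (SE 0.197; edgeR, adjusted p = 4.64e-05). Kars (lysine) rose by 1.22, from 50.5 to 66.9 CPM to 130 and 156 CPM, and Lars (leucine) by 1.12. Dars (aspartate) rose by 0.78, Iars (isoleucine) by 0.69, Mars (methionine) by 0.64 and Qars (glutamine) by 0.58. The genes of Mars and Ddit3 overlap on opposite strands, but Ddit3 had at most 6.12 CPM in any library. Eprs, which carries both of its activities in 1 protein, was the one member of the complex that did not pass: it lay at 218, 231, 236 and 239 CPM in juvenile and at 268 and 270 CPM in c-Myc libraries. Its groups did not overlap and its log2 fold change was 0.20 (SE 0.0806; edgeR, adjusted p = 0.0542), and over the alternatives the adjusted p ranged from 3.02e-05 to 0.216.

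Among the free cytosolic enzymes, Vars (valine; chromosome 17, 35000987 to 35016322, + strand) stood apart in size. It lay at 60.6, 72.7, 72.9 and 82.8 CPM in juvenile, at 70.7 to 87.3 CPM in adult and at 299 and 316 CPM in c-Myc libraries, a 4.19-fold rise (log2 fold change 2.07, SE 0.106; edgeR, adjusted p = 2.26e-08). Per kb it moved from rank 9 of the 35 in juvenile to rank 2 in c-Myc osteoblasts. Wars (tryptophan) rose by 1.15 and Hars (histidine) by 1.03. Nars (asparagine) rose by 0.71, Yars (tyrosine) by 0.61, Sars (serine) by 0.54 and Cars (cysteine) by 0.44, the last of which passed in 13 of the 18 alternatives.

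The free enzymes that did not pass were Gars, Tars and Aars. Gars lay at 165 to 179 CPM in juvenile and at 176 and 201 CPM in c-Myc libraries, which overlapped (log2 fold change 0.11, SE 0.0875; edgeR, adjusted p = 0.33). Tars (threonine) lay at 41.4 to 44.9 and at 39.8 and 44.9 CPM (log2 fold change −0.03, SE 0.113; edgeR, adjusted p = 0.839), while the mitochondrial threonine enzyme Tars2 rose 4.93-fold in the same libraries. Neither value shows an absence of change, and a fall or rise well above their SE could have been missed. Eprs, for example, did not pass at a log2 fold change of 0.20 with an SE of 0.0806.

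Aars (alanine; chromosome 8, 111033144 to 111057664, + strand) lay at 106, 108, 130 and 134 CPM in juvenile and at 96.8 and 102 CPM in c-Myc libraries. Both c-Myc libraries were below all 4 juvenile libraries, with a log2 fold change of −0.29 (SE 0.116; edgeR, adjusted p = 0.0519). It was called lower under 6 of the 18 alternatives, DESeq2 (adjusted p = 0.0411) among them, and higher under 1, library totals, under which all genes had a median of 0.87. Relative to that median Aars stood at −0.33 and Tars at −0.07. Exosc6 overlaps Aars on the same strand and had 0 counts in every library, so reads of the shared stretch may be missing from both. The mitochondrial alanine enzyme Aars2 rose 4.00-fold. Per kb, Aars moved from rank 7 in juvenile to rank 17 in c-Myc osteoblasts.

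**Figure D4:**
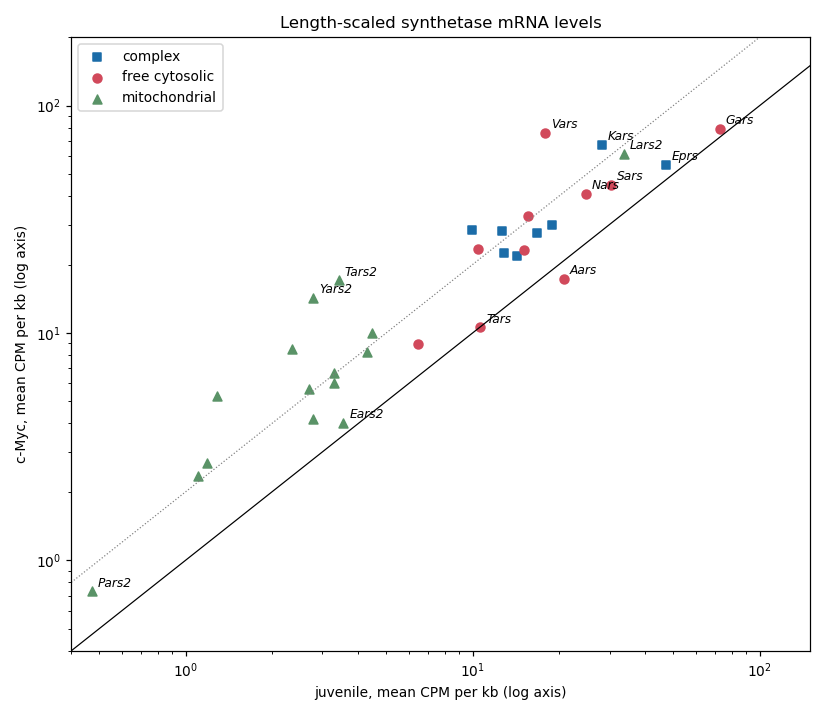
Mean CPM per kb of transcript in juvenile (x axis, n = 4) and c-Myc (y axis, n = 2) libraries on log axes, 1 point per mRNA; the solid line marks equal levels, the dotted line a doubling, and squares, circles and triangles mark the complex, free cytosolic and mitochondrial enzymes. Gars and Eprs lie near the solid line at 72.5 and 47.1 CPM per kb in juvenile cells, Aars lies under it, and Vars lies far above the dotted line.

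Adding R172H to c-Myc was compared with c-Myc alone. No member passed (0 of 35 by edgeR, where 0.469% of 12588 genes passed, 0 by DESeq2, and 0 at an unadjusted p below 0.05, where 4.68% did), and the median log2 fold change was 0.01. The 95% interval of the difference lay within a log2 fold change of 1 either way for 33 members and within 0.5 for 17, and was widest for Lars2 (−3.11 to 1.84) and Pars2 (−1.59 to 1.66). Aars came nearest to the threshold, at 79.4 and 81.3 CPM in c-Myc + R172H against 96.8 and 102 CPM in c-Myc libraries, without overlap (log2 fold change −0.28, SE 0.132, 95% interval −0.56 to 0.01; edgeR, unadjusted p = 0.0558). Fitted on these 2 groups alone, its adjusted p was 0.0379. The osteoblast sum was lower in c-Myc + R172H (56401 and 58343 CPM) than in c-Myc libraries, and its part was not tested. Of all members, 11 were lower without overlap (27.5% of all genes) and 2 were higher (17.5%).

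**Figure D5:**
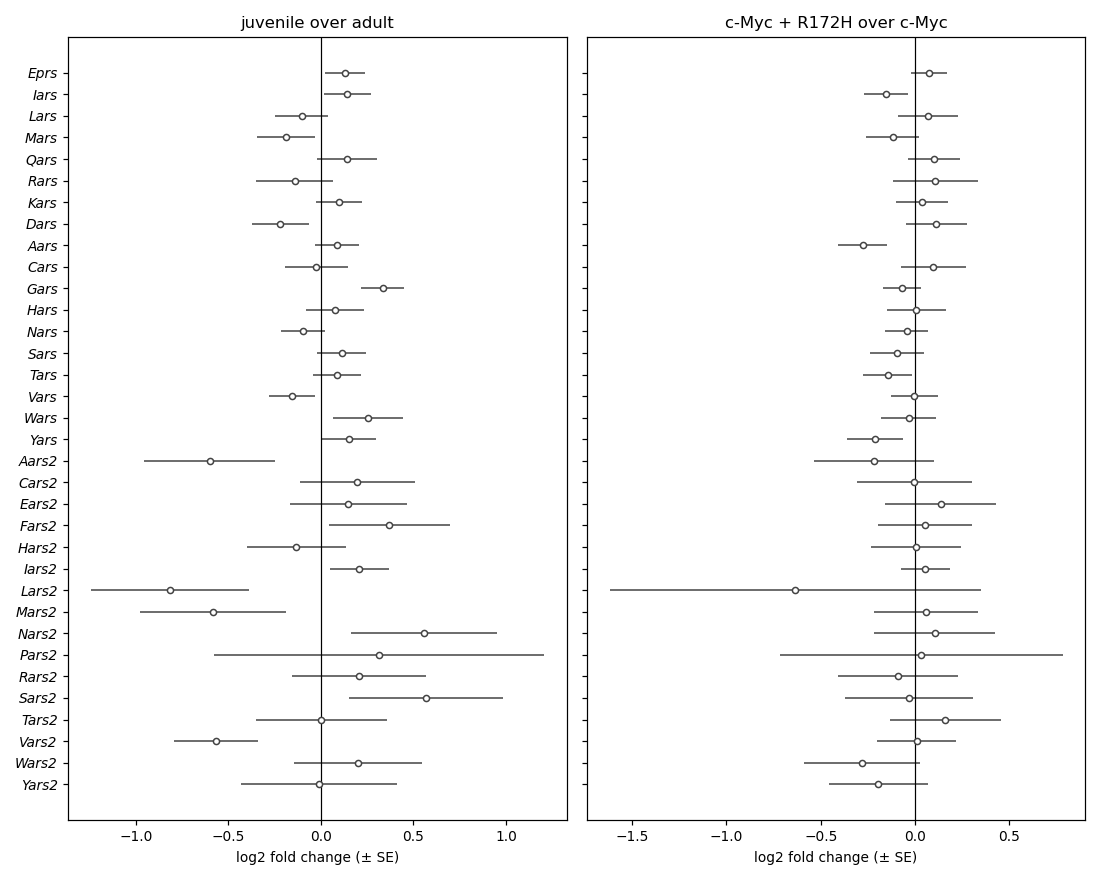
Log2 fold change of the synthetase mRNAs with SE bars, juvenile over adult on the left and c-Myc + R172H over c-Myc on the right; none passed an adjusted p of 0.05 in either comparison. Most points lie close to 0, with Gars at 0.33 and Vars2 at −0.57 for age. Other mitochondrial members with longer bars lie about as far out or further for age, among them Lars2 (−0.82), Aars2 (−0.60), Mars2 (−0.58), Sars2 (0.57) and Nars2 (0.56). The bars of Lars2 and Pars2 are long.

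Against juvenile osteoblasts, 29 members rose and 1 fell in c-Myc + R172H osteoblasts (30.4 and 26.3% of all genes), with a median log2 fold change of 0.89. This comparison shares its juvenile libraries with the one above, so the values stand side by side and are not a repeat of it. Mars2 stood at 2.88, Tars2 at 2.46 and Yars2 at 2.14, against 2.83, 2.30 and 2.34 with c-Myc alone. Eprs passed here (286 and 269 CPM; log2 fold change 0.27, SE 0.0804; edgeR, adjusted p = 0.0116), but not without either c-Myc + R172H library (adjusted p = 0.184 and 0.0754). Aars, at 79.4 and 81.3 CPM, was the member that fell (log2 fold change −0.57; edgeR, adjusted p = 0.00123), and it kept this call in 17 of 18 alternatives, library totals being the exception. Gars stood at 0.04 and Tars at −0.18, and neither passed.

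Lars2 (chromosome 9, 123366927 to 123462666, + strand), the mitochondrial leucine enzyme, varied more within groups than between them. It lay at 65.1, 113, 128 and 216 CPM in juvenile, at 130, 192, 275 and 318 in adult, at 71.8 and 407 in c-Myc and at 81.1 and 222 in c-Myc + R172H libraries, from 713 to 7174 counts. Every pair of groups overlapped, and its log2 fold change was 0.86 with c-Myc (SE 0.834) and −0.82 for juvenile over adult (SE 0.427). Without c-Myc library 2 the c-Myc value was −0.88. Over the 12 libraries, the genes whose deviations from the group mean were most like those of Lars2 among 13005 were Gm14236 (Pearson's r 0.987) and Gm15564 (0.899), and the member most unlike it was Kars (−0.66). These were chosen after their values were seen, and all points share their library's depth. Gm14236 lay at 5.02 and 31.5 CPM in the c-Myc libraries, low and high in the same libraries as Lars2.

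The genes that work with the synthetases were counted from fixed lists, beside the 28.4% of all genes that rose and the 25% that fell with c-Myc. The 3 scaffold proteins of the multi-synthetase complex all rose with c-Myc: Eef1e1 by 2.28 (5.92 ± 1.88 CPM in juvenile, SD, n = 4, to 29.1 ± 1.18 CPM, SD, n = 2), Aimp2 by 1.49 and Aimp1 by 0.81 on the log2 scale. Farsa, Farsb and Tarsl2, the synthetase genes outside the symbol pattern, all rose, by 1.36, 1.30 and 1.71. Of the 4 genes of mitochondrial tRNA amidation and formylation, Gatb (1.96), Qrsl1 (1.24) and Gatc (0.89), subunits of the enzyme that makes glutaminyl-tRNA, rose, and Mtfmt, the formyltransferase, stood at 0.11 and did not pass. Of 5 genes that finish, edit or proofread tRNA, 3 rose and 1 fell: Dtd1, a D-aminoacyl-tRNA deacylase, rose by 2.22, Trnt1, which adds the CCA end, by 1.29, and Aarsd1, an alanyl-tRNA editing protein, by 1.21. Prorsd1, a relative of prolyl-tRNA editing proteins, fell by 1.42 (11.4 ± 2.96 to 4.31 ± 0.881 CPM), and Dtd2 stood at 0.54 without passing.

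Of 6 elongation factor genes, 5 rose with c-Myc (28.4% of all genes did). Eef1a1 and Tufm deliver charged tRNA to the ribosome, and Eef1b2, Eef1d, Eef1g and Tsfm belong to their exchange factors. Tufm, the mitochondrial factor, rose by 2.63 (9.44 to 14.8 CPM in juvenile, 72 and 79.1 CPM in c-Myc libraries), Eef1d by 1.16 and Eef1g by 1.09, while Eef1a1, the abundant cytosolic factor, lay at 1722 ± 42 CPM in juvenile and 1755 ± 206 CPM in c-Myc libraries and did not pass (log2 fold change 0.005). Of 20 genes of RNA polymerase III, its factors and tRNA export, 12 rose and 0 fell (28.4 and 25% of all genes), with Polr3g at 3.52, Polr3a at 1.51 and Bdp1 at 1.29.

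Of 21 genes of the ATF4 programme, the amino acid response, 10 rose and 6 fell with c-Myc (28.4 and 25% of all genes), with a median of 0.32. Atf4 itself fell by 0.26 (141 ± 8.76 to 119 ± 7.92 CPM; edgeR, adjusted p = 0.0337). Those that rose included Slc7a5, a transporter of large neutral amino acids (2.55), Phgdh, the first enzyme of serine synthesis (2.23), and Asns, asparagine synthetase (1.89). Trib3 (4.17) and Slc7a11 (3.50) rose by more, but from at most 0.274 and 0.183 CPM in any juvenile library. Those that fell included Vldlr (−2.09), Pycr1, the last enzyme of proline synthesis (−1.99), and Nupr1 (−1.86). Of the related genes on these lists that were tested, 0 of 60 passed in the age comparison and 0 of 62 with R172H added to c-Myc (edgeR, adjusted p below 0.05), and 6 and 4 had an unadjusted p below 0.05 there, where 19.7 and 4.68% of all genes did.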

How the data were processed

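RNA-seq was done on 12 libraries of sorted mGFP+ cells (4 juvenile, 4 adult, 2 c-Myc, 2 c-Myc + R172H). According to the submitters' processing notes and the study's methods, the authors made the deposited counts with bcl2fastq 2.20, cutadapt 4.6, STAR 2.7.11a on mm10 and HTSeq 2.0.5, giving whole-number read counts per gene with no normalization; the strand setting of the counting is not given in the sources used here. Libraries were stranded, and no unnamed rows or columns of other samples were present.

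From these counts, edgeR 4.0.16 (R 4.3.3) gave TMM factors, filterByExpr filtering, robust quasi-likelihood fits and tests over all genes, with Benjamini-Hochberg adjustment and calls at an adjusted p below 0.05. The age fit held the 8 control libraries; the c-Myc fit held the juvenile libraries and both transgenic groups, which shared 1 estimate of the spread. SEs were taken from the fold change and F statistic. The study's methods used DESeq2 1.42.0, which is an alternative here. Scripts were tested on simulated data. No 2 replicates agreed within sampling noise; the number of mice behind each c-Myc library is not given in the sources used here, the 2 libraries of each c-Myc group differed in Xist and so came from different mice, and p-values measure the spread between libraries. Genes were named by a fixed rule: every member, with full values for the 4 largest rises and falls called and for members not called with c-Myc. The values of 1 member are not reported here and not plotted, and it stays in the counts and medians. Members and lists were chosen with earlier results of these data known. Gene positions are from GENCODE (GRCm38), and promoter windows from RefSeq. Alternatives were other scalings, filters, fits, a replicate block, DESeq2 and leaving out each library.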

Additional observations from a re-analysis of the deposited data

Results flagged for a closer look

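Over 70 groups of 4 values (35 members in the juvenile and the adult libraries), 2 held a library far from the others by Dixon's ratio (past its 95% critical value for 4 values), where chance flags about 1 in 20 groups. Yars lay at 31.5 CPM in adult replicate 2 and at 41.2 to 42.8 CPM in the other 3 adult libraries. Rars2 lay at 3.23 CPM in adult replicate 3 and at 4.56 to 4.74 CPM in the others. Neither gene passed the age comparison with all libraries in it.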

How the results depend on the processing

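Of the 28 members that rose with c-Myc, 21 passed in the same direction under all 18 alternatives, and the number called ranged from 21 (without c-Myc replicate 1) to 33 (library totals). With c-Myc + R172H against juvenile, 20 of 29 did so. Scaling by library totals, which leaves the collagen share in place, shifted the median of all genes to 0.87 with c-Myc, 1.11 with c-Myc + R172H, 0.21 for R172H added to c-Myc and −0.24 for age, and the members' medians to 1.79, 1.93, 0.22 and −0.15; Tars then stood at 0.80 and 0.87 and Aars at 0.55 and 0.48 in the 2 comparisons with juvenile, all still below the median of all genes. The members' medians with c-Myc and with c-Myc + R172H were 0.87 and 0.83 with upper-quartile factors, 1.00 and 0.95 with no filter on low counts, and 0.99 and 0.95 with at least 10 counts in every library, which dropped 1 member, Pars2. Leaving out 1 library at a time gave medians of 0.81 to 1.02 with c-Myc, 0.82 to 1.01 with c-Myc + R172H and −0.061 to 0.0064 for R172H added to c-Myc. It moved Tars with c-Myc from −0.11 to 0.051, Lars2 with c-Myc from −0.88 to 1.62, Lars2 for R172H added to c-Myc from −1.55 to 1.08, and Gars with c-Myc + R172H from −0.0049 to 0.050. Tars also stood at 0.025 with no filter. Gars with c-Myc + R172H turned to −0.025 with upper-quartile factors and −0.0081 on those 2 groups alone, where the members' median was 0.85. Calls of 1 member in place of 0 came from all 12 libraries in 1 fit for age (Gars), and, for R172H added to c-Myc, from those 2 groups alone (Aars) and from no filter (Lars2), a fit whose prior degrees of freedom were infinite. The cause of these shifts was not tested. The share of all genes called was not counted under any alternative, the replicate block included. Counts of members called there, such as 33 with library totals, therefore stand without a background. The 28.4% of all genes that rose with c-Myc belongs to the main fit only.

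The labels do not say that a replicate number marks a shared batch or day, and the deviations of same-numbered libraries correlated at −0.07 to 0.16. The highest value is that of the R172H comparison, whose same-numbered libraries also match in Xist (high in replicate 2 of both groups), so the number there goes with sex. With the replicate block, 29 members were called with c-Myc (Aars lower, adjusted p = 0.0203), 30 with c-Myc + R172H (median 0.95, Gars −0.0060), and 0 in the other comparisons. Depth limits Pars2 most (0 to 59 counts), and the other mitochondrial members other than Lars2 and Iars2 had 16 to 63 counts in their lowest control library. With groups of 2 libraries, the R172H comparison bounded only 17 of the 35 members within a log2 fold change of 0.5 either way, and 33 within 1.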
